A study of Rattus norvegicus with 6 samples.

Results

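The genes described here are the plasminogen activators, their receptor and inhibitors, and lysosomal cathepsins: Plat, Plau, Plaur, Serpinb2, Serpine2, Ctsb and Ctsl. They were taken by symbol from the probe sets that name exactly 1 gene, which gave 8 probe sets of 7 genes among 4818 tested probe sets of 2890 genes. All 7 genes were measured, Ctsl by 2 probe sets. The study's design asks how demethylation alters expression in immortal and RAS-transformed rat fibroblasts. RNA came from 208F, an immortal rat fibroblast line that is not transformed, and from FE8, a rat fibroblast line transformed by the HRAS oncogene. Each line was studied untreated (1 array each) and after 0.3 µM 5-aza-2'-deoxycytidine for 96 h (2 arrays each), a cytidine analogue that blocks DNA methyltransferases. With FE8 as the only transformed line, effects of transformation and other traits of the line cannot be told apart.

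Plasminogen activators are serine proteases that convert the circulating zymogen plasminogen into plasmin, which dissolves fibrin and degrades extracellular matrix. The urokinase type, encoded by Plau, acts largely at the cell surface when bound to its receptor, encoded by Plaur, while the tissue type, encoded by Plat, is known for its action on fibrin. Serpins such as Serpinb2 (plasminogen activator inhibitor type 2) and Serpine2 (protease nexin 1) bind and inactivate these enzymes. Cathepsins B and L, encoded by Ctsb and Ctsl, are cysteine proteases of the lysosome that transformed fibroblasts can also secrete. Cathepsin L was long known as the major excreted protein of transformed rodent fibroblasts.

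Because the drug removes DNA methylation, the promoters of the members are shown with each CpG, the site of that methylation, in capitals. A start from RefSeq (build GRCr8) was at hand for 5 of the 7 members, and the 250 bases before it were read. RefSeq's start of Serpinb2 may lie inside the gene, so its window is counted below but not printed. Plau and Ctsl are shown because their signals rose after the drug, as that of Serpinb2 did. Plaur is shown because its CpG content is the other extreme among the genes shown. In Plaur the capitals also mark a TGACTCA.
Plau (chr15:3511988-3512237, minus strand): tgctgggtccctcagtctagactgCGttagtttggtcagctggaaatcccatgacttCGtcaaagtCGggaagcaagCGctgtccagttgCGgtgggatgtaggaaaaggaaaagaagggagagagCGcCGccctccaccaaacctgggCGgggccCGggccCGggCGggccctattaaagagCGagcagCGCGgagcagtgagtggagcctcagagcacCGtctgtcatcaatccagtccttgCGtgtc
Ctsl (chr17:769854-770103, plus strand): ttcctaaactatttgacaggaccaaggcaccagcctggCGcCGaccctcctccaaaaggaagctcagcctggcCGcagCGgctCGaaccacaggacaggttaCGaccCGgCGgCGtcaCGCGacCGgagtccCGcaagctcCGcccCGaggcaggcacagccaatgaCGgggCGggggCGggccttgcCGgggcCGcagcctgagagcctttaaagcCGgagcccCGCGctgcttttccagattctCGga
Plaur (chr1:89181113-89181362, plus strand): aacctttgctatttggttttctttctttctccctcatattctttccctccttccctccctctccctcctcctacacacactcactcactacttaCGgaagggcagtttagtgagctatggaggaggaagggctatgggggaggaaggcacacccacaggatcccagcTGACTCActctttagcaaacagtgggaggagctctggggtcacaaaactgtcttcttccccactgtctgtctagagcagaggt

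The window of Plau held 16 CpG, that of Ctsl 24 and that of Plaur 1. Serpine2 had 30, against a median of 5 over all 33469 windows of that length. A window with at least as many CpG as Plau was found for 23.8% of them, and with at least as many as Ctsl for 10.9%. The letters TGANTCA, bound by AP-1 transcription factors and the same on both strands, occurred once in the window of Plaur and in 6.3% of all windows. They did not occur in those of Plau, Ctsl and Serpine2. The window of Serpinb2 held 0 CpG and 1 such stretch, TGATTCA. Whether CpG content goes with the drug effects was not tested. The RefSeq start may not be the one these cells use, and methylation itself was not analysed here.

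The values are array signals on a linear scale. Of 12 fibroblast genes 9 were measured, by 22 probe sets. Vim and S100a4 gave signals of at least 7118 on every array. In FE8, 14 of the 22 were called lower than in 208F without the drug (median -2.11), against 2.82% of all probe sets called lower, and 13 under it (median -2.25), against 3.65%. None was called higher, and 4 of the 22 lay above 0 in each of these 2 comparisons. Without the drug S100a4, for example, read 20185 in 208F and 23151 in FE8. Those called lower were of Col1a1, Col1a2, Col3a1, Fn1 and Sparc. These markers were lower in FE8, where the members' signals were higher. The part of this lower level in the members' line differences was not tested. The median signal of an array lay between 354 and 422. The untreated arrays shared a chip lot and a run day. The treated arrays were run on other days, on chips of other lots, so the drug cannot be told apart from the run. The treated 208F arrays differed from each other in lot and run day, while the treated FE8 arrays shared both. The ratio of 5' to 3' signal of beta-actin, a sign of RNA quality, was 0.824 in untreated 208F and between 0.351 and 0.529 on the other 5 arrays. The same ratio for GAPDH set another array apart, with 0.691 in untreated FE8 and between 0.916 and 1.132 on the other 5. The part of RNA quality in the results below was not tested. Whether the treated duplicates came from separate cultures is not stated, so the p values measure only the spread between these arrays, which may be technical. In such bulk RNA, fewer cells that express a gene and less RNA per cell cannot be told apart.

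**Figure D1:**
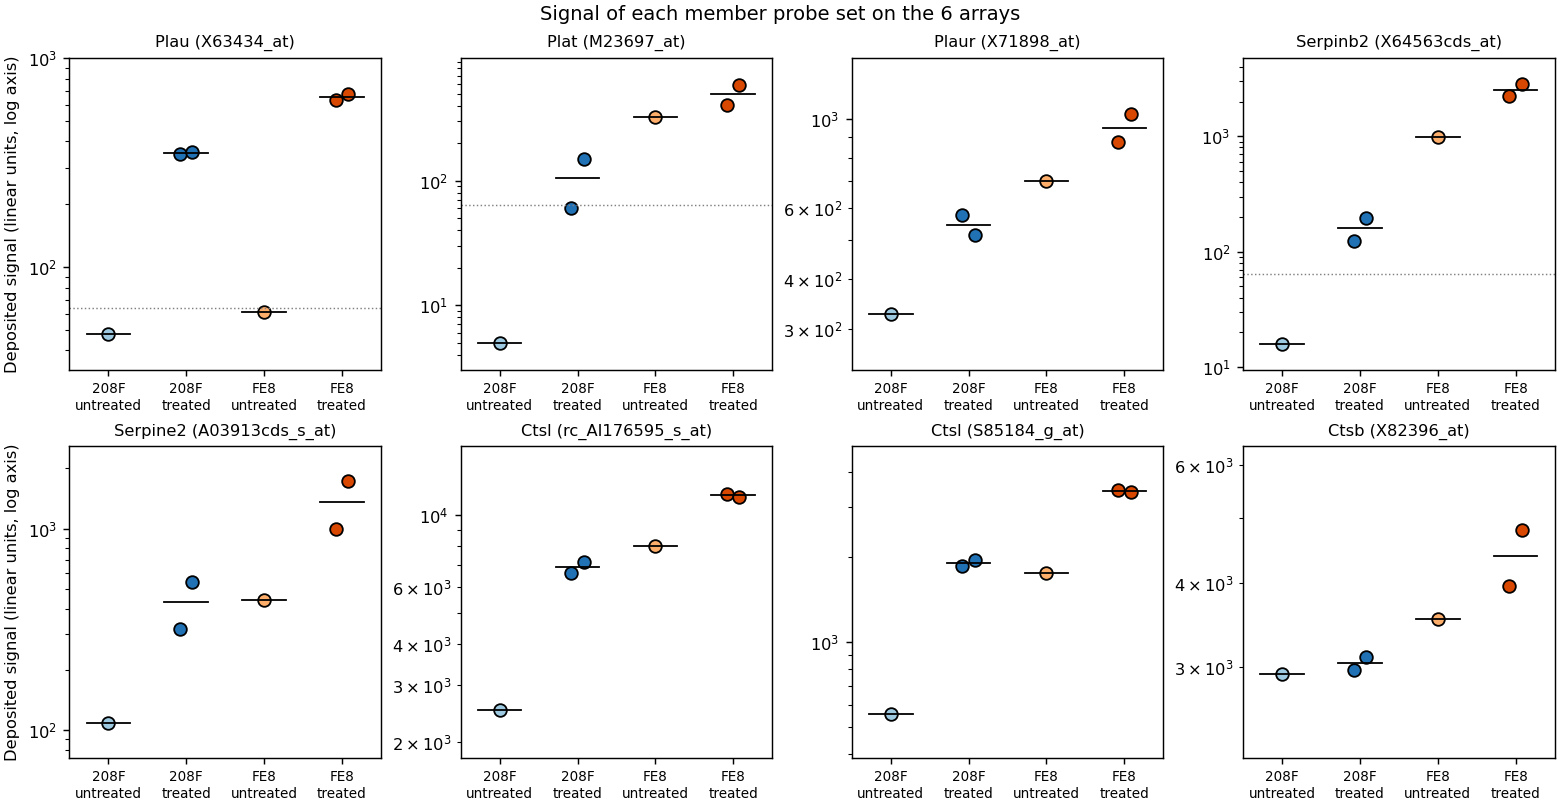
Each panel shows 1 member probe set, with its deposited signal on a log axis for the 4 groups. Points are arrays, bars are group means and the dotted line is the constant of 64 added before the logarithm. In all 8 panels the FE8 points lie above the 208F points of the same treatment, and the treated points above the untreated one of the same line.

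Without the drug, Serpinb2, Plat and Ctsl were higher in FE8 than in 208F, and no member was lower. For the tests, 64 was added to each signal and the log2 taken, errors are standard errors from 1 model over all 6 arrays, and a call needed an adjusted p under 0.05 over all tested probe sets. Of the 8 member probe sets 4 were called higher in untreated FE8, while 3.09% of all probe sets were called higher and 5.92% in either direction. Their median log2 difference was 1.55, against 0.02 over all probe sets. Each line had 1 untreated array, assumed to vary like the treated duplicates.

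Among the activators, Plat gave a signal of 5 in untreated 208F and 327 in untreated FE8. The 208F value lies far below the constant of 64, so the size of the log2 difference depends on that constant. The log2 difference was 2.50 ± 0.51 (adjusted p = 0.013), and it was 4.03 with a constant 4 times smaller than 64 and 1.16 with a constant 4 times larger. Plau behaved otherwise. Its signal was 48 in untreated 208F and 61 in untreated FE8, both near the bottom of the scale, and the difference was 0.16 ± 0.41 (adjusted p = 0.96, 95% interval -0.74 to 1.05). The receptor gene Plaur read 327 in 208F and 703 in FE8, a difference of 0.97 ± 0.35 that was not called (adjusted p = 0.18).

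The inhibitor gene Serpinb2 gave the largest line difference of the members on the log2 scale with 64 added. As raw ratios, Plat stood at 65.4 and Serpinb2 at 61.9, both against 208F signals far below that constant. Its signal was 16 in untreated 208F and 990 in untreated FE8, a log2 difference of 3.72 ± 0.40 (adjusted p = 0.00022). It stood at the 99.8th percentile of all differences, and was between 2.20 with the larger constant and 4.97 with the smaller. Serpine2, the nexin, read 109 and 440, 1.54 ± 0.47, and was not called (adjusted p = 0.095).

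Both Ctsl probe sets were called. The brighter, rc_AI176595_s_at, read 2516 in 208F and 8022 in FE8, a ratio of 3.19 (log2 difference 1.65 ± 0.31, adjusted p = 0.0089). The other, S85184_g_at, read 555 and 1753, a ratio of 3.16 (1.55 ± 0.30, adjusted p = 0.0098). These signals lie well above the constant, so the log2 difference is close to that of the raw signals. Ctsb, the other cathepsin, read 2920 and 3532 (0.27 ± 0.31, adjusted p = 0.84, 95% interval -0.41 to 0.95). Without either FE8 treated replicate 1 or replicate 2, 1 member stayed called, Serpinb2 (adjusted p = 0.01 in each fit), and 2.26% and 2.35% of all probe sets were. The spread in these fits comes from the treated 208F arrays only, which differ in chip lot and run day.

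**Figure D2:**
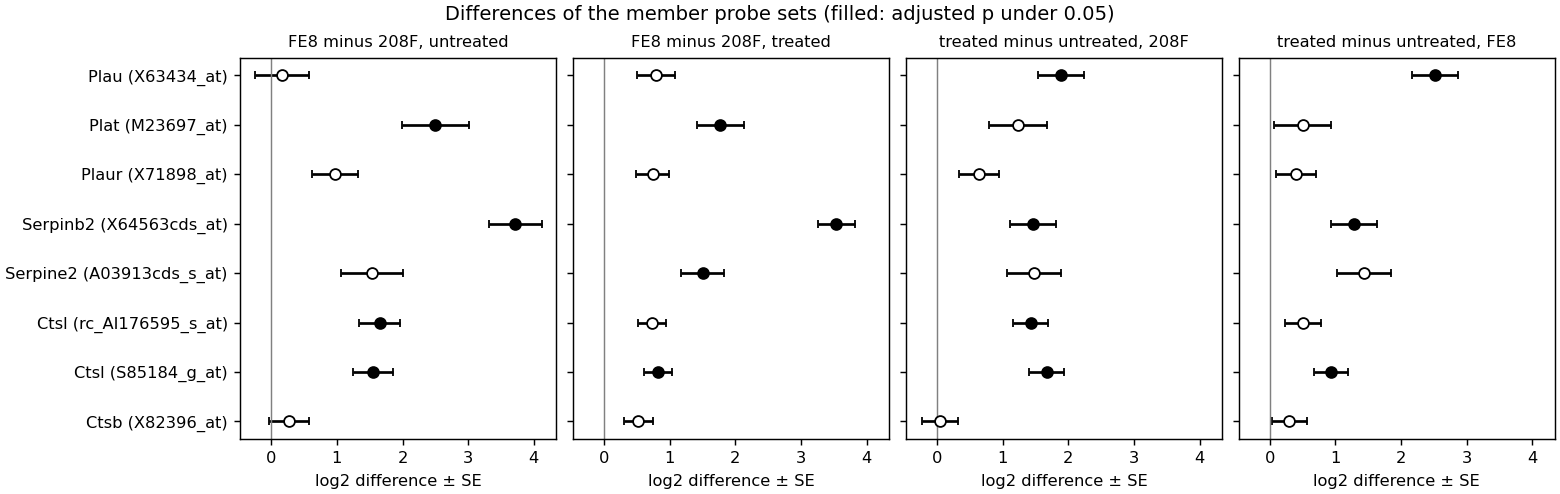
The 4 panels give the log2 difference of each member probe set with its standard error, first for FE8 minus 208F without and with the drug, then for treated minus untreated in 208F and in FE8. Filled points have an adjusted p under 0.05. Every point lies above 0, Plau is filled in the drug panels only, and Serpinb2 is filled in all 4.

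Under the drug, Serpinb2, Plat, Serpine2 and 1 Ctsl probe set were higher in FE8 than in 208F. The means come from arrays other than those of the untreated comparison, but the errors of both comparisons come from the treated duplicates. Here 4 of the 8 probe sets were called higher in FE8 and none lower, against 3.42% of all probe sets called higher, 3.65% called lower and 7.08% in either direction. The median was 0.81, and 0 over all probe sets. All 8 had both FE8 arrays above both 208F arrays, as 20.7% of all probe sets did.

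Serpinb2 read 2221 and 2826 in treated FE8 and 124 and 196 in treated 208F. The groups lay far apart, with a log2 difference of 3.54 ± 0.28 (adjusted p = 2e-05). Plat read 406 and 587 in FE8 and 60 and 149 in 208F, where the duplicates differed by more than a factor of 2. Its difference was 1.77 ± 0.36 (adjusted p = 0.011), and 1.06 with the larger constant.

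Serpine2 read 990 and 1716 in FE8 and 319 and 545 in 208F. It was called here, 1.50 ± 0.33 (adjusted p = 0.018), although its duplicates were spread widely in both lines. For Plau the signals were 635 and 676 in FE8 and 347 and 356 in 208F. The duplicates agreed closely and did not overlap between lines, but the difference of 0.79 ± 0.29 was not called (adjusted p = 0.16). Plaur read 875 and 1031 against 576 and 515, 0.74 ± 0.25 (adjusted p = 0.12).

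The Ctsl probe set S85184_g_at read 3468 and 3390 in FE8 against 1857 and 1960 in 208F, a ratio of means of 1.80 (0.82 ± 0.21, adjusted p = 0.039). That call was lost with the replicate number as a block (adjusted p = 0.057), with arrays scaled to 1 median (0.061) and without the intensity trend (0.11), and adjusted p ranged from 0.0091 to 0.35 over 11 settings. The brighter rc_AI176595_s_at read 11571 and 11362 against 6643 and 7150, a ratio of 1.66 (0.73 ± 0.22), and was not called (adjusted p = 0.08). Ctsb read 3963 and 4810 against 2966 and 3099, 0.52 ± 0.22 (adjusted p = 0.24). Within chip lot 3, which leaves out 208F treated replicate 1, 5 members were called, Serpinb2, Plat, Serpine2 and both Ctsl probe sets, against 10.2% of all probe sets. The difference of Serpinb2 was 3.31 there. This fit has 1 treated 208F array, assumed to vary like the 2 FE8 arrays, which alone give the spread. Without FE8 treated replicate 1 or replicate 2, Serpinb2 alone was called among the members (adjusted p = 0.0061 and 0.0095), against 2.82% and 1.99% of all probe sets.

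The drug effect was asked for in each line. In 208F, Plau, Serpinb2 and Ctsl were higher after the drug and no member was lower. Of the 8 probe sets 4 were called, against 3.59% of all probe sets called higher and 5.19% in either direction. The members' median was 1.45, and 0.11 over all probe sets. That overall shift of 0.11 was -0.01 when arrays were scaled to 1 median and -0.03 after quantile normalization, where the members' median was 1.31 and 1.20.

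Plau rose in 208F from 48 to 347 and 356. The difference was 1.89 ± 0.35 (adjusted p = 0.01), and it ranged from 1.00 with the larger constant to 2.52 with the smaller. The order of the members by size depends on the constant. With the larger one both Ctsl probe sets (1.42 and 1.37) stood above Plau. Serpinb2 rose from 16 to 124 and 196, 1.47 ± 0.35 (adjusted p = 0.034), a call lost with the larger constant (0.61, adjusted p = 0.26), after quantile normalization (1.18, adjusted p = 0.12) and without the intensity trend (adjusted p = 0.059), where adjusted p ranged from 0.00025 to 0.26 over 10 settings. Both Ctsl probe sets rose. S85184_g_at went from 555 to 1857 and 1960 (1.67 ± 0.26, adjusted p = 0.004), and rc_AI176595_s_at from 2516 to 6643 and 7150 (1.43 ± 0.27, adjusted p = 0.01). The second of these was not called with arrays scaled to 1 median (adjusted p = 0.055, and from 1.7e-08 to 0.12 over 10 settings).

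The other members had higher signals after the drug without passing the test. Serpine2 went from 109 to 319 and 545 (1.48 ± 0.41, adjusted p = 0.065) and Plat from 5 to 60 and 149 (1.24 ± 0.44, adjusted p = 0.15). Both were called with the smaller constant, at 1.79 for Serpine2 and 2.41 for Plat, against 5.25% of all probe sets called in either direction. Without 208F treated replicate 1 the values were 1.82 for Serpine2 and 1.63 for Plat. Plaur went from 327 to 576 and 515 (0.64 ± 0.30, adjusted p = 0.31). Ctsb was nearly level, at 2920 before and 2966 and 3099 after (0.05 ± 0.27, adjusted p = 0.95), and its sign turned, to -0.11, when arrays were scaled to 1 median. Leaving out FE8 treated replicate 1 or replicate 2 left 0 members called in 208F, against 1.56% and 1.62% of all probe sets. An FE8 array enters only the spread here, so the members' differences in 208F did not change, with a median of 1.45 in each fit. Plau then had an adjusted p of 0.059, where its range over 10 settings was 0.0015 to 0.059.

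In FE8, Plau rose most. Its signal went from 61 to 635 and 676, a log2 difference of 2.52 ± 0.35 (adjusted p = 0.0016) that stood at the 99th percentile of all drug effects in FE8. It was called in all 10 other settings, from 1.52 with the larger constant to 3.12 with the smaller. Of the 8 members 3 were called higher and none lower, against 5.06% of all probe sets called higher and 8.16% in either direction. The members' median was 0.73, and 0.08 over all probe sets.

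The other calls in FE8 were close to the threshold. Serpinb2 went from 990 to 2221 and 2826 (1.29 ± 0.35, adjusted p = 0.045), and the Ctsl probe set S85184_g_at from 1753 to 3468 and 3390 (0.94 ± 0.26, adjusted p = 0.049). Each was called in 3 of 10 other settings, with adjusted p from 0.0014 to 0.26 for Serpinb2 and 0.0022 to 0.32 for Ctsl. Serpine2 went from 440 to 990 and 1716 and was just short of a call (1.44 ± 0.41, adjusted p = 0.0527).

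The brighter Ctsl probe set went from 8022 to 11571 and 11362, a ratio of 1.43 (0.51 ± 0.27, adjusted p = 0.31). Plat went from 327 to 406 and 587 (0.50 ± 0.44, adjusted p = 0.57), Plaur from 703 to 875 and 1031 (0.40 ± 0.30, adjusted p = 0.51) and Ctsb from 3532 to 3963 and 4810 (0.30 ± 0.27, adjusted p = 0.58). All 4 probe sets were higher on both treated arrays, but by no more than their errors allow to be called. Without FE8 treated replicate 1 or replicate 2, Plau alone was called (adjusted p = 0.044 and 0.045), against 1.58% and 1.6% of all probe sets.

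Cell type markers were read beside these drug effects. Of the 22 fibroblast probe sets 4 were called lower after the drug in 208F, of Col1a1 and Col3a1, against 1.6% of all probe sets. None was called higher there. In FE8 4 were called lower, of Col1a2 and Sparc, against 3.09%. Another Sparc probe set was called higher in FE8, against 5.06% of all probe sets. Of 6 epithelial genes 3 were measured, by 4 probe sets. In 208F their summed signal was 188 without the drug and 3553 and 3118 with it. In FE8 it was 162 without and 4495 and 4522 with the drug, most of it from the keratin Krt8. After the drug 2 of the 4 were called higher in 208F, against 3.59% of all probe sets, and 3 in FE8, against 5.06%. The difference of Krt8 was 3.79 ± 0.27 in 208F (adjusted p = 1.4e-05) and 4.37 ± 0.27 in FE8 (adjusted p = 5.2e-06). The drug calls of Krt18 and Epcam were lost without FE8 treated replicate 1 or replicate 2, while those of Krt8 were not. Most of the fibroblast drug calls were lost in those fits too. Of 10 leukocyte genes only Cd14 was measured, with summed signals of 518 untreated and 802 and 611 treated in 208F, and 311 untreated and 723 and 420 treated in FE8. Of 7 endothelial genes 2 were measured, Flt1 and Kdr, with summed signals of 300 untreated and 269 and 198 treated in 208F, and 197 untreated and 516 and 542 treated in FE8. Flt1, a receptor for vascular endothelial growth factor, was called higher after the drug in FE8, from 113 to 507 and 540 (1.73 ± 0.36, adjusted p = 0.013), a call lost without FE8 treated replicate 1 or replicate 2 (adjusted p up to 0.12). No marker probe set of these lists was at 0 on any array. The part of these cell types in the members' drug effects was not tested.

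**Figure D3:**
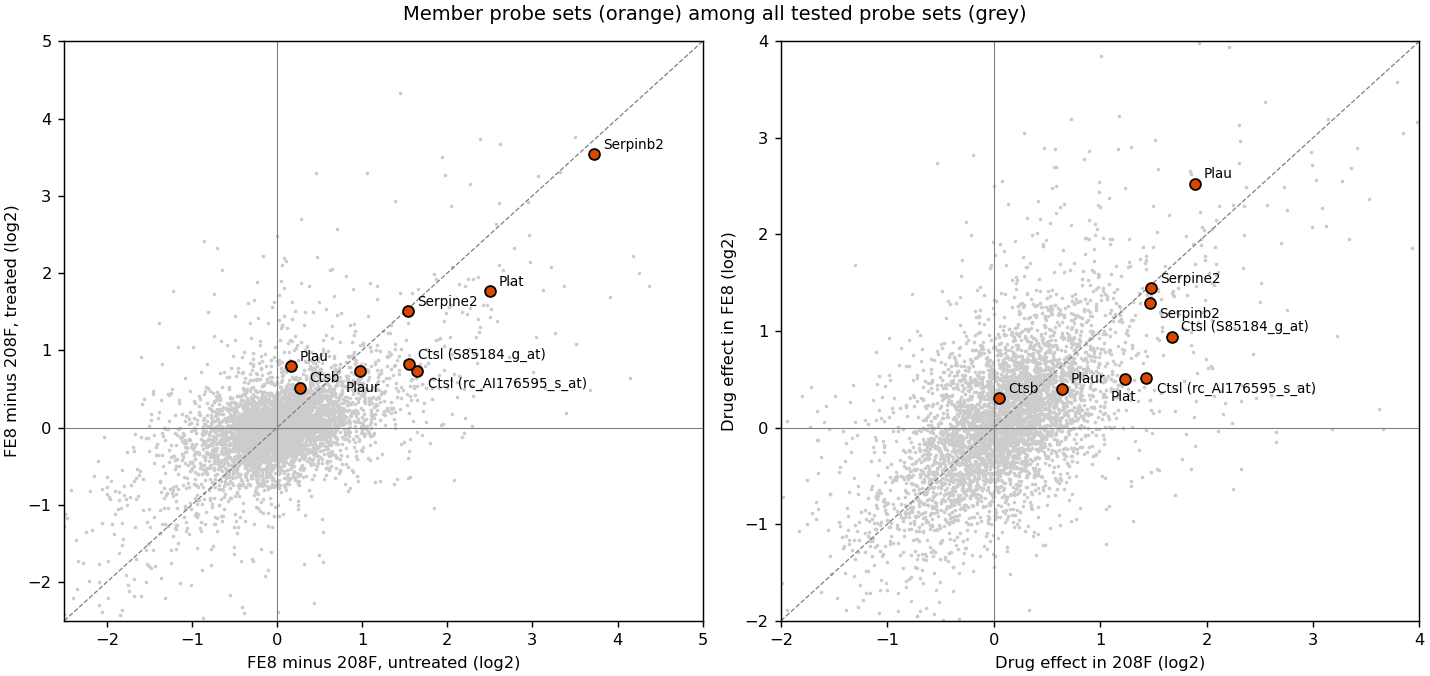
The left panel sets the log2 line difference without the drug against that under the drug, and the right panel the drug effect in 208F against that in FE8, with the members in orange, all tested probe sets in grey and equal values on the dashed line. Serpinb2 lies far out along the line axes and Plau along the drug axes, and the axes leave out 65 grey points on the left and 51 on the right.

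The members differed in which contrast was the larger. Serpinb2 and Plat had larger differences between the lines than after the drug, 3.72 and 2.50 without the drug between lines against drug effects of 1.47 and 1.24 in 208F. For Plau the order was opposite, 0.16 between the untreated lines and 1.89 and 2.52 after the drug. These contrasts share arrays, and the difference between them was not tested. Untreated FE8 and treated 208F were not ordered alike by the Ctsl probe sets. S85184_g_at read 1753 in untreated FE8, below the 1857 and 1960 of treated 208F, and rc_AI176595_s_at read 8022, above the 6643 and 7150 there. Serpine2 read 440 in untreated FE8, between the 319 and 545 of treated 208F.

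In all 8 member probe sets FE8 was above 208F without the drug, as for 51.6% of all probe sets. In all 8 both treated 208F arrays were above the untreated 208F array, as for 44.1%, and both treated FE8 arrays above the untreated FE8 array, as for 42.9%. The full order, with both treated FE8 arrays also above both treated 208F arrays, held for 8 of the 8 and for 6.6% of all probe sets, and the members were chosen with earlier results of these data known. Treated FE8 therefore had the highest and untreated 208F the lowest signal for each. For Ctsl the mean of treated FE8 was 6.18 times the untreated 208F signal by S85184_g_at and 4.56 times by rc_AI176595_s_at, and the ratio was 2.91 for Plaur and 1.50 for Ctsb.

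Whether the drug acted differently in the lines was asked by the difference of the drug effects, FE8 minus 208F. None of the 8 members was called with limma, and 0.0623% of all probe sets were called, 0.0208% higher and 0.0415% lower. At an unadjusted p under 0.05 there was 1 of the 8 members, and 364 of all 4818 probe sets. The member with the unadjusted p under 0.05 was Ctsl rc_AI176595_s_at, -0.92 ± 0.38 (adjusted p = 0.58, 95% interval -1.76 to -0.08). Its value was -0.97 without 208F treated replicate 1, and between -0.97 and -0.86 over 10 settings. The second Ctsl probe set was at -0.73 ± 0.37 and Plat at -0.74 ± 0.62. The value of Plat ran from -1.86 with the smaller constant to -0.10 with the larger. Plau was at 0.63 ± 0.50, with a 95% interval from -0.46 to 1.73, which covers drug effects that are smaller, equal or larger in FE8. For Serpinb2 the value was -0.18 ± 0.49, and -1.10 with the smaller constant, and for Serpine2 -0.04 ± 0.57.

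Of 43 other listed genes of plasminogen activation and coagulation 20 were measured, by 27 probe sets. Without the drug 2 probe sets were higher in FE8, 2 were lower and 23 were not called, with a median of -0.19. The 4 calls are 14.8% of the list, against 5.92% of all probe sets. Tfpi, an inhibitor of the coagulation initiator tissue factor, was higher by 2.29 ± 0.34 (adjusted p = 0.0024), with signals of 109 and 780, and Vldlr, an endocytic receptor that takes up serpin-bound proteases, by 2.26 ± 0.43 (adjusted p = 0.009). F2r, the thrombin receptor, was at -1.60 ± 0.30 (adjusted p = 0.0089) and Serpinh1, a collagen chaperone, at -1.86 ± 0.34 (adjusted p = 0.0071).

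Under the drug 0 of these 27 were higher in FE8 and 2 were lower, F2r at -2.18 ± 0.21 and Serpinh1 at -0.93 ± 0.24, with a median of -0.20. That is 7.41% of the list called, against 7.08% of all probe sets. In limma's test 1 of the 27 was higher in FE8 and 5 lower at an unadjusted p under 0.05. Of all 4818 probe sets 389 were higher and 434 lower at that cut. In 208F 1 of them was higher after the drug, Tfpi, which went from 109 to 691 and 697 (2.13 ± 0.30, adjusted p = 0.0021), which is 3.7% of the list called, against 5.19% of all probe sets. None was lower in 208F, with 1 lower at an unadjusted p under 0.05, as were 338 of all 4818 probe sets. In FE8 none of the 27 was called for the drug by limma, against 8.16% of all probe sets, with a median of 0.11. At an unadjusted p under 0.05 there were 6 of the 27, and 1024 of all 4818 probe sets. The calls of F2r and Serpinh1 without the drug (adjusted p up to 0.089 and 0.082) and of Serpinh1 under it (up to 0.45) were lost without FE8 treated replicate 1 or replicate 2, while those of Tfpi and Vldlr, and of F2r under the drug, passed in each of 4 fits that leave out 1 treated array. Anxa2 and S100a10, which form a cell surface receptor for plasminogen and its tissue-type activator, were bright on all arrays, S100a10 between 6093 and 7883, and were not called in any of these 4 comparisons.

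Of 29 other lysosomal protease, inhibitor and marker genes 11 were measured, by 19 probe sets. None was called between the untreated lines by limma, where the median was 0.12. At an unadjusted p under 0.05 there were 3 of the 19, and 756 of all 4818 probe sets. Under the drug 2 were higher in FE8, both of Ctsd, the aspartic protease cathepsin D (1.05 ± 0.26 and 0.94 ± 0.23, adjusted p = 0.032 for both), with a list median of 0.17. These are 10.5% of the list, against 3.42% of all probe sets called higher. After the drug none of the 19 was called in 208F by limma, with a median of 0.34. There 5 of the 19 had an unadjusted p under 0.05, as had 853 of all 4818 probe sets. In FE8 3 were called higher after the drug, with a median of 0.50. The 3 are 15.8% of the list, against 5.06% of all probe sets called higher. They were Lamp1, a lysosomal membrane protein, from 1684 to 4298 and 4394 (1.33 ± 0.26, adjusted p = 0.0088), and Psap, the precursor of sphingolipid activator proteins, by 2 of its probe sets (1.84 ± 0.34 and 1.04 ± 0.26). These calls of Ctsd (adjusted p up to 0.33), Lamp1 (up to 0.16) and Psap (up to 0.29) were lost without FE8 treated replicate 1 or replicate 2, and 1 of the Ctsd calls also without 208F treated replicate 1. The cystatins Cst3 and Cstb, inhibitors of cathepsins B and L, were not called in these 4 comparisons.

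**Figure D4:**
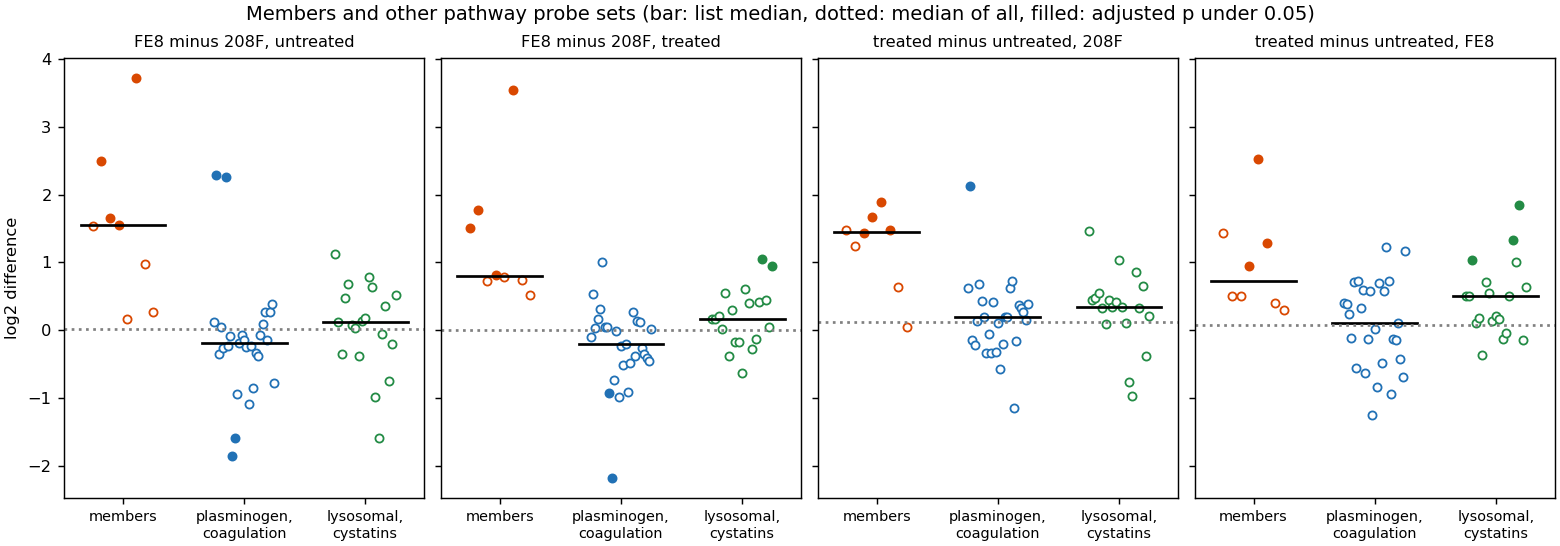
Each panel is 1 comparison and shows the log2 difference of every measured probe set of the members (8), of the plasminogen and coagulation list (27) and of the lysosomal list (19). Bars are list medians, the dotted line is the median of all probe sets and filled points have an adjusted p under 0.05. The members' median is above that of both other lists in all 4 panels.

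The genes whose signals most resembled a member over the 6 arrays were found by Pearson's r on the log2 scale among 1921 or 1922 probe sets that ranged by at least 1. The arrays fall into 4 groups, and r is given as a description. Serpinb2 was most like the chemokine Cxcl10 (r = 0.999), whose signal went from 509 to 1078 and 1416 with the drug in 208F and from 4348 to 8112 and 11840 in FE8, then Btg3 (0.998) and St6gal1 (0.996). Plau was most like Gip (0.998), Lamp1 (0.997) and the galectin Lgals3 (0.995), the last with 3910 and 4713 untreated in 208F and FE8 and between 8700 and 11799 after the drug. Ctsl S85184_g_at was most like Jak2 (0.998), Errfi1 (0.997), an inhibitor of the EGF receptor, and Kctd13 (0.994). The brighter Ctsl probe set was also most like Errfi1 (0.994), followed by Cpt1a (0.99) and Vgf (0.986). Serpine2 was most like the chemokine Ccl2 (0.993), Tap1 (0.988) and Cebpg (0.986), and Plat like Pfkp (0.992), Klf9 (0.988) and Fuca1 (0.986).

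Among the members themselves, Serpinb2 and Plat followed each other most closely across genes (r = 0.979 over 6 arrays), and Plau was the least like Plat (0.565), Serpinb2 (0.57) and Ctsb (0.581). The 2 Ctsl probe sets had r = 0.987.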

How the data were processed

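Expression was measured with Affymetrix rat arrays in 6 RNA samples, grouped by their labels. The deposited table holds signal intensity on a linear scale, made with MAS5 per the submitters' processing notes, which give neither version nor settings. Its 4847 rows are a subset by a filter that is not stated, and 29 control rows were left out. Run settings, other values deposited for each array, gave chip lots and run days only. Array means lay between 1258 and 1389.5, so nothing was rescaled. The small number of arrays limits the precision.

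Gene names came from the platform annotation, updated by gene identifier (assembly GRCr8) for 3942 of 3956 single-gene probe sets. Another 207 named several genes and 655 none. The log2 was taken of signal plus 64, the 10th percentile, which understates differences of low signals. limma 3.58.1 in R 4.3.3 fitted 4 group means (eBayes with an intensity trend, 2 residual and 9.02 prior degrees of freedom), with 2-sided tests and Benjamini-Hochberg adjustment across all 4818 probe sets. The fit was tested on simulated data.

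All member probe sets are named, with at most 6 called probe sets per other list and comparison and the 3 most similar genes of each called member. Members and lists were chosen with earlier results of these data known. Alternatives were a constant 4 times smaller or larger, quantile or median scaling, a mean signal of at least 200, no trend, each treated array left out, and the replicate number as a block.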

Additional observations from a re-analysis of the deposited data

How the results depend on the processing

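Of the member differences in the 5 comparisons, 346 kept direction and side of the threshold over the alternatives, 41 lost a call, 13 gained one and 8 turned sign. No turned value was a call. For the difference of drug effects, Serpine2 turned to 0.28 and Serpinb2 to 0.54 with a constant 4 times larger. After quantile normalization they turned to 0.16 and 0.15, and without 208F treated replicate 2 to 0.3 and 0.05. Without FE8 treated replicate 1, Serpine2 turned to 0.34. Over the fits that leave out 1 treated array, the values ran from -0.42 to 0.34 for Serpine2 and from -0.41 to 0.05 for Serpinb2. Ctsb turned to -0.11 for the drug in 208F with arrays scaled to 1 median. The cause was not tested. For the drug in FE8, 1 member was called, in place of 3, with a constant 4 times smaller, after quantile normalization, with the mean signal filter, and without the trend. Leaving out 1 treated array moved the members called from 1 to 5 for the line without the drug, 1 to 5 under the drug, 0 to 6 for the drug in 208F, 1 to 4 in FE8, and 0 to 1 for the difference of drug effects. Over all probe sets, these fits called 109 to 541 without the drug, 96 to 530 under it, 75 to 663 for the drug in 208F, 76 to 783 in FE8, and 0 to 206 for the difference of drug effects, against 285, 341, 250, 393 and 3 with all arrays. For that difference, the other settings called 10 (smaller constant), 6 (larger constant) and 27 (arrays scaled to 1 median), and 0 by limma after quantile normalization, with the filter and without the trend (315, 312 and 332 at an unadjusted p under 0.05). Quantile normalization called 164 for the drug in 208F and 257 in FE8. With the replicate block, on treated arrays only, 3 members were called in the line comparison under the drug, in place of 4, as Ctsl S85184_g_at stood at 0.82 with an adjusted p of 0.057 (0.0091 to 0.35 over 11 settings), and 315 probe sets passed. Deviations of same-numbered treated arrays correlated across probe sets with r = 0.319, from 2 pairs, which does not settle whether the numbers pair the arrays. Signals near 64 limit Plat, Plau and Serpinb2 in untreated 208F, and Plau in untreated FE8.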
